A study of Homo sapiens with 12 samples.

Results

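Histone marks were described at 8 genes of blood coagulation and fibrinolysis in HepG2 cells, an established human liver cancer line kept without treatment. The genes were F2, F7, F10, F9, PROC, SERPINC1, PLG and LPA. Their regions were all peaks within 20 kb of the given gene starts, measured from the nearest edge of the peak, in the pooled list of each mark. The rule used position only. It gave 96 of the 273551 peaks on chromosomes 1 to 22 and X. Of these 30 of 66513 were H3K27ac, 55 of 182592 were H3K4me1 and 11 of 24446 were H3K4me3 peaks.

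Chromatin immunoprecipitation and sequencing (ChIP-seq) was done with antibodies to H3K27ac, which marks promoters and enhancers in use, to H3K4me3, typical of promoters, and to H3K4me1, typical of enhancers and of the sides of promoters. Each mark had 3 libraries, and 3 more were control libraries, titled input although their antibody was an anti-mouse immunoglobulin. The 3 lists pooled the replicates, so no value has a replicate spread and no difference between genes was tested. Depth per library is unknown, and the controls gave no values of their own. Markers of the cell line were not checked, since a gene annotation of the build of the lists was not used here.

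The coagulation cascade is a chain of serine proteases made by hepatocytes and released into plasma as inactive precursors. F7 encodes factor VII, which starts the chain with tissue factor. F9 and F10 encode factors IX and X, and F2 encodes prothrombin, the precursor of thrombin. PROC encodes protein C, which as an active protease cuts cofactors of the chain, and SERPINC1 encodes antithrombin, an inhibitor of thrombin and factor Xa. PLG encodes plasminogen, the precursor of the protease that dissolves fibrin. LPA encodes apolipoprotein(a), a relative of plasminogen carried on lipoprotein(a).

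The starts are given in GRCh37 and counted from 1. F2 starts at chr11:46740743, F7 at chr13:113760102, F10 at chr13:113777113 and F9 at chrX:138612895, each on the + strand. PROC starts at chr2:128175996 (+ strand), SERPINC1 at chr1:173886516 (- strand), PLG at chr6:161123225 (+ strand) and LPA at chr6:161087407 (- strand). F7 and F10 lie 17011 bp apart and PLG and LPA 35818 bp apart, so that these pairs share part of their windows. Peaks near both starts of a pair are described under each gene and were counted once in totals.

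RefSeq promoter sequences were available for 6 of the 8 genes, F2, F7, F10, F9, PROC and PLG, as the 250 bases before the start. They are from GRCh38.p14, so their positions cannot be set beside those of the peaks. F7 and F10 starts were 17008 bp apart in that table. For PROC and PLG, which have more than 1 listed start, the one farthest upstream was used. The 4 shown are a pair whose starts carried all 3 marks (F2 and F7) and a pair whose starts carried none (F9 and PLG). Capitals mark matches to any of the motifs searched on both strands: the HNF1 motif GTTAAT, the HNF4 site CAAAGTCCA and its core CAAAG, the C/EBP motif TTNNGNAA, the FOXA motif TGTTTNC, the Sp1 motif GGGCGG and the TATA box TATAAA. The HNF4 core lies within the HNF4 site, so these can overlap.
F2 promoter, GRCh38.p14 chr11:46718963-46719212, + strand: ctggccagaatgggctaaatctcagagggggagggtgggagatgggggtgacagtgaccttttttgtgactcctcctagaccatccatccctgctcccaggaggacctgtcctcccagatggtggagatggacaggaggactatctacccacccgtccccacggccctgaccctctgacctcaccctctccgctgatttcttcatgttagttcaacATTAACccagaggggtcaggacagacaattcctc
F7 promoter, GRCh38.p14 chr13:113105541-113105790, + strand: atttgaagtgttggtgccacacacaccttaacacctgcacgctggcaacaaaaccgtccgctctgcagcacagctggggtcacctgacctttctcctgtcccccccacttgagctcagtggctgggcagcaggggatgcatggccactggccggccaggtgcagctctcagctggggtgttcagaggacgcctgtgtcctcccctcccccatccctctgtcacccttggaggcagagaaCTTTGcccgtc
F9 promoter, GRCh38.p14 chrX:139530489-139530738, + strand: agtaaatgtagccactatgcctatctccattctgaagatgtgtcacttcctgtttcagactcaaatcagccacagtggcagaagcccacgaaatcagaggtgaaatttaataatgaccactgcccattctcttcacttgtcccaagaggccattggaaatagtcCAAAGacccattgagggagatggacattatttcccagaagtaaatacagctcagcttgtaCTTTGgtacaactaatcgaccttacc
PLG promoter, GRCh38.p14 chr6:160701943-160702192, + strand: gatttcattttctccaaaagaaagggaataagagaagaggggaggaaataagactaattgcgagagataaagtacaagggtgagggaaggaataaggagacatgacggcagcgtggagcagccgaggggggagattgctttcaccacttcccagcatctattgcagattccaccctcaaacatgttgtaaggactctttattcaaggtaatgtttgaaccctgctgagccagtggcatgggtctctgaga

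The F2 promoter held the HNF1 motif from -34 to -29, read on the opposite strand, a motif present in 6.23% of 35116 RefSeq promoters of this length. The F7 promoter held the HNF4 core from -11 to -7. The F9 promoter held it from -86 to -82 and from -26 to -22. The core was present in 42.1% of all promoters. F10, not shown, held the Sp1 motif, present in 42.6%. PLG and PROC held none at the start used. This depended on the start, since at the other listed one PLG held the HNF1 motif from -46 to -41 and PROC the C/EBP motif. The full HNF4 site (0.325% of promoters), the C/EBP motif (33.2%), the FOXA motif (15.5%) and the TATA box (10.7%) were in none of the 6 windows at the starts used. A match is a string of letters and not a measured site.

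In GC content the 4 promoters with marks and the 2 without did not overlap. SERPINC1, whose start was marked, and LPA, whose start was not, are not among these 6. GC content was 61.6% for F7, 59.2% for F10, 56.4% for F2 and 55.6% for PROC, whose starts were marked. It was 46.4% for PLG and 43.2% for F9, whose starts were not. At the other listed starts it was 52.8% for PROC and 46.0% for PLG. The median of all promoters was 58.0% (interquartile range 46.4 to 68.0). Of all promoters, 58.1% had a lower GC content than F7, 52.1% than F10, 45.3% than F2 and 43.4% than PROC. For PLG this share was 24.7% and for F9 18.6%. Whether marked and unmarked promoters differ in GC content over all genes was not computed. CpG dinucleotides numbered 9 in F10, 6 in F7, 4 in PROC, 4 in PLG, 3 in F2 and 2 in F9. All 6 counts were below the median of 11 over all promoters. All but that of F9 lay within the interquartile range of 3 to 23, so that marked F2 and PROC were not above unmarked PLG. With 4 genes against 2 and a choice of genes that was not random, the GC values are a description.

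**Figure D1:**
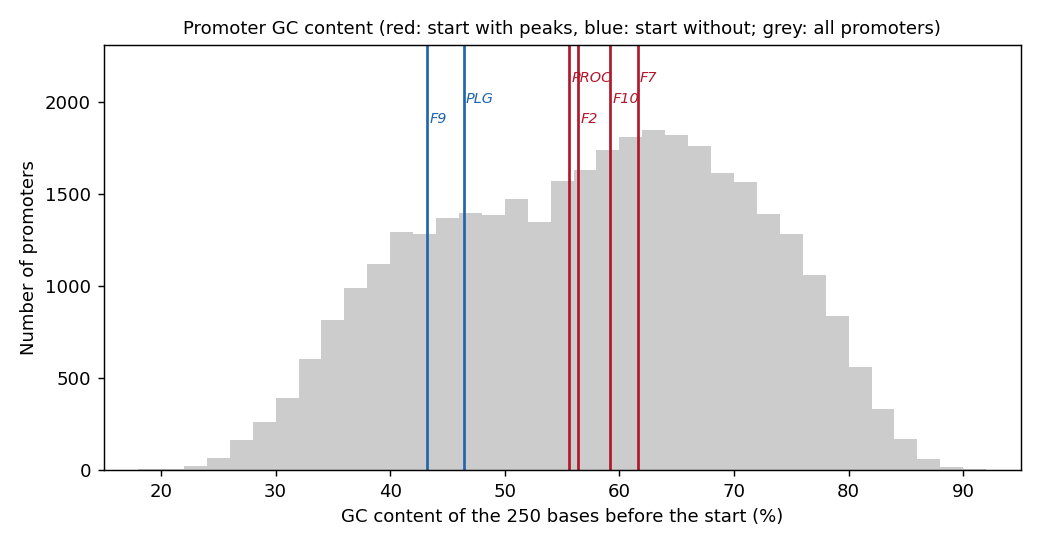
GC content in percent of the 250 bases before the start for 6 genes (lines) over the number of all 35116 RefSeq promoters in bins of GC content (grey). F9 (43.2%) and PLG (46.4%), whose starts had no peak, lie to the left of the 4 marked genes, which run from 55.6% to 61.6%.

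Peaks of all 3 marks lay at 5 of the 8 starts, and no peak lay at the others. F2, F7, F10, PROC and SERPINC1 each had an H3K27ac, an H3K4me3 and an H3K4me1 peak within 1000 bp. F9, PLG and LPA had none of the 3. By role, this was 3 of 4 coagulation factors and both anticoagulant genes, but neither PLG nor LPA, its neighbour and relative. For comparison, the genome was divided into consecutive tiles as wide as the interval examined. H3K27ac reached 6.05% of the tiles, H3K4me1 14.3% and H3K4me3 3.01%, and 2.13% held all 3 marks. These tiles are any place in the genome, including places without genes, and the same share over all gene starts was not computed. The H3K27ac and H3K4me3 peaks covered the start base at all 5 genes, while the H3K4me1 peak covered it at SERPINC1 only.

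Around the starts the picture was wider. H3K27ac peaks lay within 20 kb of 5 of 8 starts, against 29.1% of tiles of that width. H3K4me3 peaks lay within 20 kb of 6 starts (22% of tiles), LPA being the sixth. H3K4me1 peaks lay within 20 kb of 7 starts (49.8% of tiles). F9 was the gene with no peak in any list, as were 49.2% of all tiles and 70.2% of the tiles on chromosome X.

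**Figure D2:**
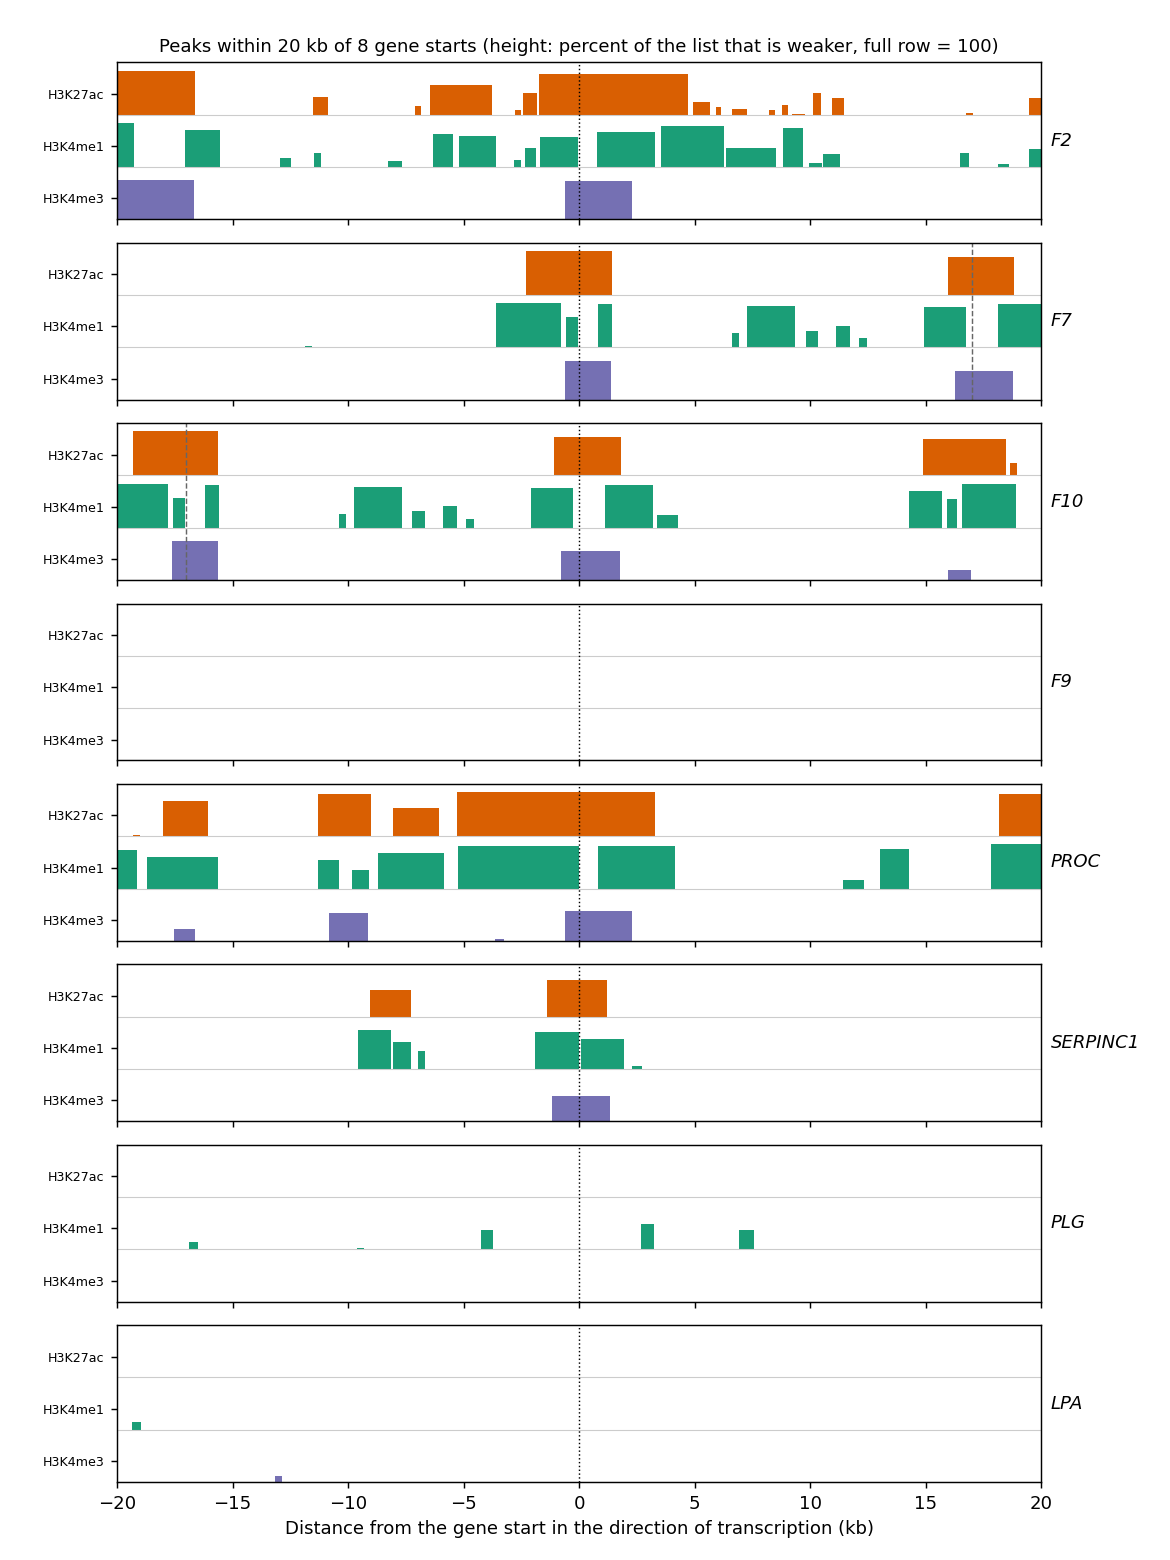
Peaks of the 3 lists within 20 kb of the 8 starts, by distance in kb in the direction of transcription. The height of a block is the percent of peaks in the same list with a lower signal value, drawn no lower than 2, and dashed lines mark the start of the other gene of the F7 and F10 pair. F9 is empty, PLG holds H3K4me1 alone, LPA 2 low blocks, all away from the start, and F2 and PROC are the most densely filled.

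The 5 marked starts differed in strength. The signal value of a peak is the authors' own, and is compared only within a list. The H3K27ac peak on the start had a signal value of 52.4 at F7, 50.6 at PROC, 26.95 at F2, 18.4 at F10 and 14.0 at SERPINC1. F7 and PROC thus had signal values close to each other, above 99.0% and 98.8% of all H3K27ac peaks. SERPINC1 was the lowest of the 5 and still above 82.4% of the list. For H3K4me3 the values were 52.6 at F7, 50.9 at F2, 34.3 at PROC, 32.3 at F10 and 21.4 at SERPINC1. F7 and F2 were close to each other, as were PROC and F10. Without replicate values no order among the 5 genes was tested, and the order within each of these pairs has no support. PROC ranked 774 of 66513 for H3K27ac and 8114 of 24446 for H3K4me3. SERPINC1 had the lowest value of the 5 for both marks.

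**Figure D3:**
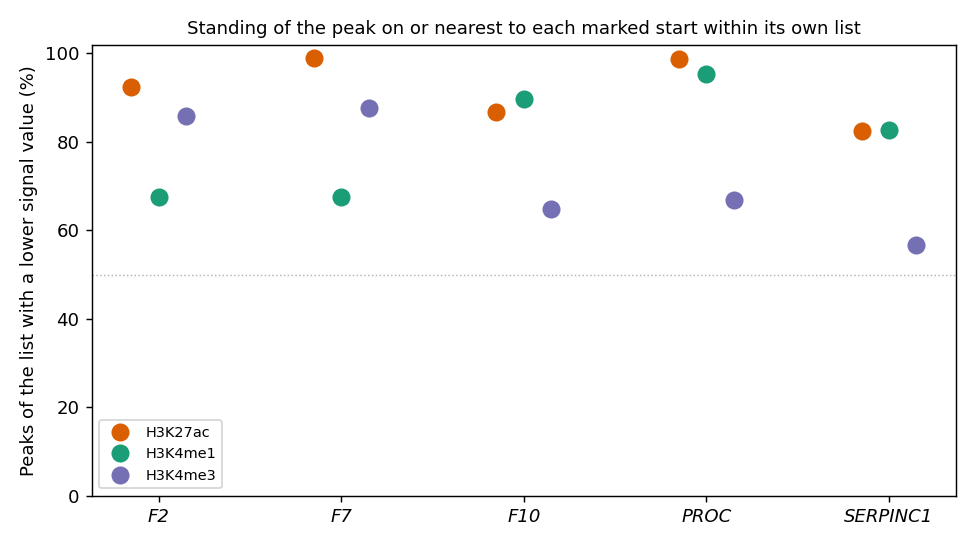
Percent of peaks of the same list with a lower signal value than the peak on, or nearest to, the start, for the 5 marked genes and 3 marks. H3K27ac lies between 82.4% (SERPINC1) and 99.0% (F7), and H3K4me3 between 56.7% (SERPINC1) and 87.7% (F7).

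The H3K4me3 peaks of the 4 marked genes on the + strand were placed alike around the given starts. Relative to the start, in the direction of transcription and with negative positions upstream, they began at -617 bp at F2, -626 at F7, -764 at F10 and -591 at PROC. They ended at 2282, 1396, 1785 and 2284 bp. Between 69.1% (F7) and 79.5% (PROC) of the peak lay on the transcribed side. The SERPINC1 peak was nearly centred, from -1188 to 1338, with 53.0% on the transcribed side. The start peaks were between 2023 bp (F7) and 2900 bp (F2) wide, against a median of 1536 bp over the list (interquartile range 730 to 2657.75). Only those of F2 and PROC (2876 bp) were wider than the upper quartile. PROC has another listed start, 1270 bp after the first in GRCh38.p14. All placements at PROC, here and below, were measured from the given start only and would differ from the other one.

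Summits also fell just inside the genes. H3K4me3 summits were at 317 bp after the start in F2, 281 in F7, 645 in F10, 323 in PROC and 345 in SERPINC1. H3K27ac summits were at 223 bp in F2, 259 in F7, 238 in F10 and 225 in PROC. SERPINC1 differed, with its H3K27ac summit at -369, upstream of the start. The summits of the 2 marks were therefore 94 bp apart at F2, 22 at F7, 98 at PROC, 407 at F10 and 714 at SERPINC1. Over the 16305 H3K4me3 peaks that overlapped exactly 1 H3K27ac peak, the median was 103 bp (interquartile range 44 to 442), so that the distance at SERPINC1 was above the upper quartile.

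H3K4me1 was interrupted at the starts. The stretch without H3K4me1 ran from -67 to 784 at F2, from -42 to 815 at F7, from -248 to 1131 at F10 and from -19 to 809 at PROC. It held the H3K4me3 summit in all 4. Its length was 852 bp at F2, 858 at F7, 829 at PROC and 1380 at F10, against a median of 1470 bp (interquartile range 916 to 2132.5) at 10587 H3K4me3 summits with an H3K4me1 peak on either side, no farther than 1000 bp from the H3K4me3 peak. The first 3 lengths were below the lower quartile. At SERPINC1 the H3K4me1 peaks on the 2 sides were only 86 bp apart, from 6 to 91, and the downstream one covered the H3K4me3 summit, as H3K4me1 did at 40.6% of all H3K4me3 summits. SERPINC1 thus combined the lowest H3K4me3 value of the 5 starts with the shortest interruption of H3K4me1.

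**Figure D4:**
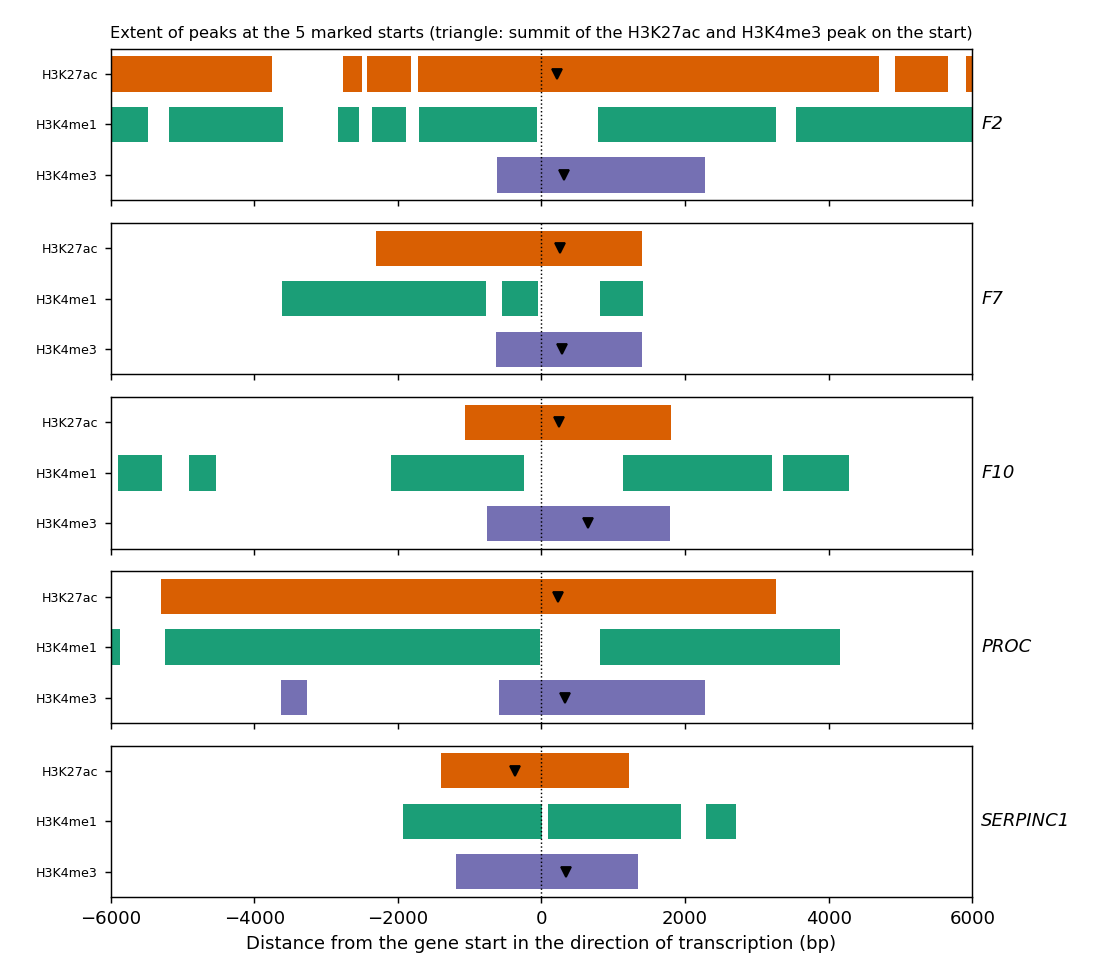
Extent of H3K27ac, H3K4me1 and H3K4me3 peaks within 6000 bp of the 5 marked starts, by distance in bp in the direction of transcription, with triangles at the summits of the H3K27ac and H3K4me3 peaks that cover the start. At F2, F7, F10 and PROC the H3K4me1 row is open just after the start, for 829 to 1380 bp, where the H3K4me3 summit lies, and at SERPINC1 it is nearly closed (86 bp).

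Upstream, H3K27ac reached farther than H3K4me3 by amounts that differed between genes. The excess was 4711 bp at PROC, 1681 at F7, 1100 at F2, 306 at F10 and 216 at SERPINC1. Downstream the H3K27ac and H3K4me3 peaks ended 6 bp apart at F7 and 22 bp apart at F10. Edges within 25 bp on at least 1 side were found in 10.8% of the 16305 overlapping pairs. At F7 an H3K4me1 peak ended at 1409, next to the ends of the other marks at 1402 and 1396. At F2 the H3K27ac peak went on 2412 bp past the H3K4me3 peak and at PROC 982 bp past it, whereas at SERPINC1 it ended at 1218 bp, before the H3K4me3 end at 1338.

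F2, the prothrombin gene, had the most H3K27ac peaks of the 8 windows, with 17. The peak on the start, chr11:46739026-46745437, was 6412 bp wide, and 1.74% of the list was wider. Of the 17 peaks, 14 had a signal value below the list median of 3.15. In all 10 peaks lay downstream of the start peak, each with a signal value of 1.61 to 3.07. One of these had a q-value of 0.0726 and was thus above 0.05. All 10 overlapped H3K4me1. They lie between 4922 and 20174 bp after the start, and the RefSeq length of F2 is 20294 bp in GRCh38.p14.

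Upstream of F2 an H3K27ac peak from -6461 to -3756 had a signal value of 5.95 and overlapped 2 H3K4me1 peaks without H3K4me3. A region with higher values lay at the edge of the window, at chr11:46720703-46724097. Its H3K27ac signal value was 45.8, above the 26.95 on the F2 start, and its H3K4me3 signal value was 53.1. In the RefSeq order of genes the next ones upstream of F2 are ZNF408 and ARHGAP1. Whether this region is the start of either was not tested, since the annotation is of another build.

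F7 and F10, neighbours on chromosome 13, had 1 H3K27ac and 1 H3K4me3 peak each on their starts. F7 was the stronger for H3K27ac (52.4 against 18.4) and for H3K4me3 (52.6 against 32.3). The H3K27ac peak of F7 was chr13:113757795-113761504 and that of F10 chr13:113776043-113778920. No H3K27ac peak lay between them. H3K4me1 alone marked the interval, in 5 peaks that overlapped neither other mark. The widest, from 7270 to 9333 bp after the F7 start, measured 2064 bp and had a signal value of 6.71, above 92.0% of the list. The RefSeq length of F7 is 14895 bp in GRCh38.p14, and these 5 peaks lie within that distance of the start. Directly upstream of F7 an H3K4me1 peak from -3615 to -777 had the signal value 10.7, above 99.2% of the list. It was the highest H3K4me1 value of the F7 and F10 windows.

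F10 had a further marked region, nearer to the start than the RefSeq length of the gene, 26731 bp in GRCh38.p14. An H3K27ac peak at chr13:113792004-113795573, from 14891 to 18460 bp after the start, had a signal value of 14.2, against 18.4 on the start. H3K4me1 there reached 9.41. An H3K4me3 peak of 989 bp lay within it with a signal value of 3.24, and 23.1% of the H3K4me3 list was weaker. For H3K4me3 this region and the F10 start were farther apart, at 3.24 against 32.3. The last H3K27ac peak of this window, from 19085 to 19378, had a q-value of 0.320 and overlapped no other peak.

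F9, the factor IX gene on chromosome X, stood in an unmarked stretch. The nearest peak of any list was H3K4me1, 160765 bp downstream, with a signal value of 2.59. On the other side the nearest lay 325031 bp away. The stretch without any peak was 486 kb long, and 0.347% of the stretches between peaks were as long or longer. Those long stretches together hold 24.6% of all unmarked bases, so that a base in such a stretch is not rare. The nearest H3K27ac peak was 305946 bp downstream (signal value 2.09) and the nearest H3K4me3 peak 325109 bp upstream (2.59).

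PROC, the protein C gene, had the widest H3K27ac peak on a start. It spanned chr2:128170694-128179262, from -5302 to 3266, and its 8569 bp were exceeded by 0.726% of the list. H3K4me1 followed it on both sides of the start, from -5248 to -20 with a signal value of 7.65 and from 810 to 4163 with 8.29. The H3K4me3 peak covered only the part from -591 to 2284. A second H3K4me3 peak of 369 bp at -3629 had a signal value of 1.85, and 4.04% of the list was weaker.

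Farther from PROC the window held more regions. A region from -11298 to -9010 carried H3K27ac at 30.8 and H3K4me3 at 30.7, the latter close to the 34.3 on the PROC start. One from -18004 to -16076 had H3K27ac at 11.6 and H3K4me3 at 3.61. Downstream, chr2:128194181-128197550 had H3K27ac at 33.0 and H3K4me1 at 11.8 with no H3K4me3. That H3K4me1 value was above 99.6% of the list and was the highest of the 55 H3K4me1 peaks described here. The region begins 18185 bp after the start, beyond the RefSeq length of PROC (10816 bp). Between the start and this region, H3K4me1 alone lay from 13034 to 14283 with a signal value of 6.28.

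SERPINC1, the antithrombin gene, had 2 H3K27ac peaks. The one on the start, chr1:173885298-173887920, had a signal value of 14.0. The other lay upstream, from -9062 to -7298 (chr1:173893814-173895578), with a signal value of 4.15, and overlapped 2 H3K4me1 peaks (5.86 and 3.83) without H3K4me3. Inside the gene beyond 1938 bp there was a single further peak, H3K4me1 from 2294 to 2709 with a signal value of 2.30. The window of SERPINC1 was the least covered of the 5 marked ones, at 10.97% for H3K27ac, 16.8% for H3K4me1 and 6.32% for H3K4me3.

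PLG, the plasminogen gene, had 5 H3K4me1 peaks and no other peak within 20 kb. Their signal values ran from 2.19 to 3.73, and 4 of them were below the list median of 3.42. The nearest began 2668 bp after the start (chr6:161125893-161126455). Their widths were between 311 and 644 bp, against a list median of 696 bp. None overlapped another mark, while 61.6% of all H3K4me1 peaks overlapped neither other mark. The nearest H3K27ac peak was 181688 bp upstream and had a signal value of 1.72, above 4.28% of the list.

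LPA, the apolipoprotein(a) gene, had 1 H3K4me3 and 1 H3K4me1 peak within 20 kb, both upstream, between the starts of LPA and PLG. The H3K4me3 peak, chr6:161100261-161100574, was 12854 bp from the start, 314 bp wide and had a signal value of 2.45, above 14.1% of the list. It overlapped no other peak. The H3K4me1 peak, also in the PLG window, had a signal value of 2.59. Downstream of the start the nearest peak of any list was 145180 bp away. The RefSeq length of LPA, 132794 bp, thus fits within the unmarked stretch of 158 kb. Of the stretches between peaks of any list, 1.52% were as long or longer, and these hold 43.7% of all unmarked bases. PLG and LPA lay in the same stretch of 471 kb without H3K27ac, and 1.69% of the stretches between H3K27ac peaks were as long. Such stretches hold 49.1% of all bases between H3K27ac peaks, so that a base in one is ordinary.

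Taken over the windows, the marks covered more than their genome share. H3K27ac covered 17.3% of the 292835 bp of merged windows, against 3.04% of the length reached by the lists. H3K4me1 covered 23.0% against 6.47%, and H3K4me3 6.97% against 1.49%. By gene, H3K27ac covered 46.6% at F2, 42.1% at PROC, 26.9% at F10, 16.5% at F7, 10.97% at SERPINC1 and 0 at F9, PLG and LPA. H3K4me1 covered 53.3% at PROC and 48.7% at F2, but 6.15% at PLG, 0.990% at LPA and 0 at F9. The windows were placed on genes, and the genome share includes places without genes.

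**Figure D5:**
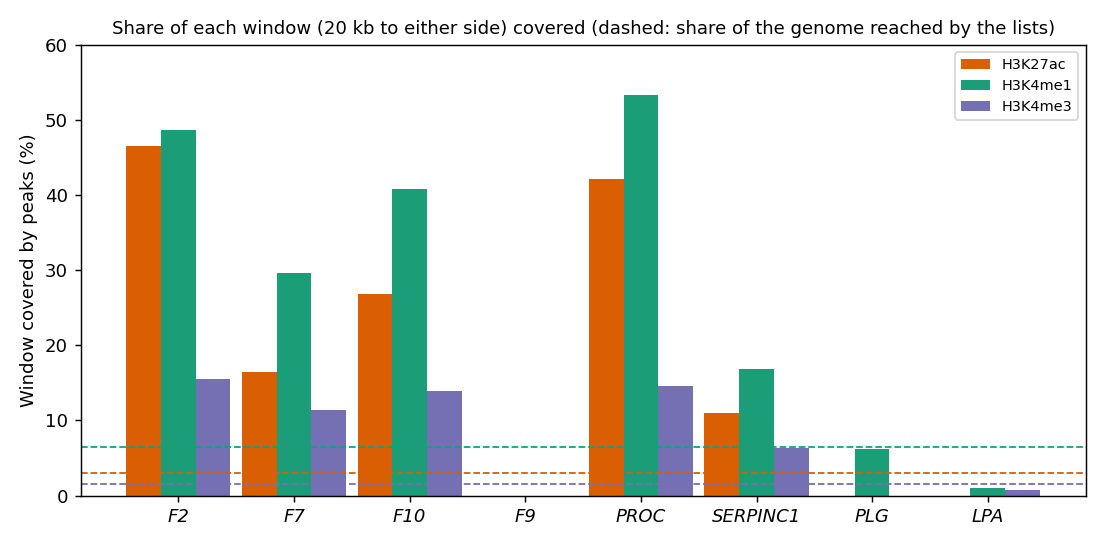
Percent of the bases within 20 kb of each start that lie in a peak, by mark, with dashed lines at the share of the length reached by each list (H3K27ac 3.04%, H3K4me1 6.47%, H3K4me3 1.49%). The 5 marked genes are above the line for each mark, PLG has H3K4me1 alone (6.15%), LPA has under 1% for each of 2 marks, and F9 has no bar.

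Mark combinations in the windows were compared with the lists. H3K4me1 peaks near these genes overlapped H3K27ac in 36 of 55 cases (65.5%, 95% Wilson interval 52.3 to 76.6), against 33.4% of the list. H3K4me1 peaks with neither other mark were 19 of 55 (34.5%, 23.4 to 47.7) against 61.6%. These 19 included all those near PLG and LPA and 5 between F7 and F10. H3K27ac peaks overlapped H3K4me3 in 9 of 30 cases (30.0%, 16.7 to 47.9), against 31.7%, a share near that of the list. The share near the genes was 16.7% where 50% of a peak had to be covered and 53.8% in the stronger 50% of each list, so that it depended on the setting. The share over the list was not computed at these settings. H3K4me1 overlapped 28 of the 30 H3K27ac peaks (93.3%, 78.7 to 98.2), against 87.4%, leaving 2 (6.67%, 1.85 to 21.3) with neither methylation, against 8.52%. H3K27ac peaks with H3K4me1 but without H3K4me3 were 19 of 30 (63.3%, 45.5 to 78.1), against 59.8%, and also near it. Of the 11 H3K4me3 peaks 10 overlapped H3K27ac (77.5% of the list) and 10 overlapped H3K4me1 (92.7%), the exception being the LPA peak in both. The intervals cover counting error only and treat neighbouring peaks as independent, which peaks of 1 locus are not. The list shares include peaks far from genes, while the windows were placed on gene starts. The same shares around other gene starts were not computed.

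The median H3K27ac signal value near the genes was 2.84, against 3.15 in the list. On the log2 scale the near peaks were lower than the rest by -0.15, a difference that changed sign with 10 kb windows (0.19). F2 supplied 14 of the 17 near peaks that were below the list median. In the windows 2 of the 30 H3K27ac peaks had a q-value above 0.05, 1 at F2 and 1 at F10, against 0.656% of the list. None of the H3K4me1 and H3K4me3 peaks did, against 0.123% and 0.172% of their lists. At the limit of the windows, the outermost H3K27ac peak counted lay 19481 bp from F2 (signal value 2.51) and the first left out 20665 bp from F2 (1.83). For H3K4me1 these were 19447 bp from F2 (3.14) and 22805 bp from PROC (3.16), and for H3K4me3 16657 bp from F2 (53.1) and 27451 bp from F10 (39.7).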

How the data were processed

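The deposited peak lists, 1 for each of 3 marks, were pooled over replicates by the authors, going by their names. The submitters' processing notes name MACS2 and hg19, another name of GRCh37, with no version, threshold or role. The use made of the control libraries is not given in the sources used here. Each peak came with the authors' signal value, whose reference is not stated, and with the deposited −log10 of its q-value. The lowest deposited −log10 q-value was 0.490 for H3K27ac, 0.840 for H3K4me1 and 0.196 for H3K4me3. The other deposited columns were not used.

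Peaks on chromosomes 1 to 22 and X were kept, and overlap meant at least 1 bp. Tiles ran from the first base to the last peak of each chromosome, assembly gaps included. Positions count from 1. Motifs and base composition came from RefSeq promoters of GRCh38.p14, and all 8 genes matched its gene table by symbol. RefSeq gene lengths are of that build too. They were set beside distances from the GRCh37 starts, so that a place inside or beyond a gene is approximate. Shares have 95% Wilson intervals. Alternatives were a 10 kb window, a minimum −log10 q-value of 5, only the upper 50% of a list by signal value, summits in place of edges, joining within 1000 bp, 50% coverage as overlap, and other distances from starts. All 8 genes, with the nearest and the highest peaks in each list, were named by rule. The members and lists were chosen with earlier results of these data known. Other coagulation genes and cell markers were not analysed, for want of an annotation of the build, and LPA and SERPINC1 promoters were not used here. Interval functions were tested on simulated data. Python 3.11.15, numpy 2.4.6, pandas 2.3.3, scipy 1.17.1 and matplotlib 3.10.9 were used.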

Additional observations from a re-analysis of the deposited data

How the results depend on the processing

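Over 9 results, 42 alternative values were computed, of which 24 stayed within 1.5 times the main count, within the Wilson interval of the main share or at the main difference, 15 moved farther and 3 changed sign. The 5 starts with H3K27ac and the 5 with H3K4me3 were F2, F7, F10, PROC and SERPINC1 under each alternative run. For H3K4me1 the number of starts fell from 5 to 1 (SERPINC1) when the peak had to cover the start, and to 3 (F2, F7 and F10) when its summit had to lie within 1000 bp. With windows of 10 kb there were 18 H3K27ac, 36 H3K4me1 and 7 H3K4me3 peaks. A minimum −log10 q-value of 5 left 19 H3K27ac and 36 H3K4me1 peaks, and the stronger 50% of each list 13 H3K27ac, 30 H3K4me1 and 7 H3K4me3 peaks. Joining peaks within 1000 bp gave 14 H3K27ac and 24 H3K4me1 peaks. Fewer peaks follow from how these alternatives are built. The share of near H3K27ac peaks that overlapped H3K4me3, 30.0% in the full lists, was 16.7% with 50% coverage as overlap, 47.4% with the minimum q-value and 53.8% in the stronger 50% of each list. In the stronger 50%, 83.3% of near H3K4me1 peaks overlapped H3K27ac, and 77.8% did so with the minimum q-value. The whole-list shares under these settings were not computed, so these values have no matching background. The difference in median log2 H3K27ac signal value was -0.15 in the full list, 0.19 with windows of 10 kb, 1.39 with the minimum q-value and 1.08 in the stronger 50%. The cause of these changes of sign was not tested. No paired analysis was possible because the lists pool the replicates, and for the same reason no replicate could be left out. Depth is unknown, so the absence of a peak at F9, PLG or LPA means that none was listed.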
